A study of Mus musculus with 21 samples.

Results

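Foxf1, Pdgfra, Meox1, Tcf15, Foxc1 and Foxc2 are 6 genes used as markers of lateral plate and paraxial mesoderm. They were followed through the first days of differentiation of mouse embryonic stem cells. They were chosen by name, with earlier results of these data known, as every probe set that the platform annotation assigns to them. That gave 10 probe sets for these 6 of the 18193 genes tested: 3 for Pdgfra, 2 each for Foxf1 and Foxc1, and 1 each for Meox1, Tcf15 and Foxc2. All 6 genes were measured, and no filter on low values removed any. The study grew CGR8 cells, an established mouse embryonic stem cell line, as embryoid bodies, which are floating aggregates in which the germ layers begin to form. Each of 7 groups held 3 biological replicates, 21 arrays in all. Undifferentiated cells were collected at day 0 from 10% GMEM. Aggregates in 20% IMDM were collected at days 2, 3 and 5, without ascorbic acid (control) or with ascorbic acid (vitamin C) at 100 µM. Every aggregate group came from hanging drops of 500 cells per 25 µL, moved to a shaker after day 2. Differences between day 0 and any later day therefore combine time with the change of medium and culture format. Those between day 2 and later days combine time with the move to the shaker. The design cannot separate these parts. Cultures went to the arrays only where ascorbic acid had later raised the number of beating aggregates, so they are a selected set from 1 line.

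Mesoderm leaves the primitive streak and is divided by its distance from the midline. Paraxial mesoderm passes through a presomitic stage, marked by Tbx6 and Msgn1, and then forms the somites, where Meox1 and Tcf15 act in somite patterning and epithelial organisation. Lateral plate mesoderm gives the heart, the body wall, the limb buds and the mesenchyme of the gut. BMP signalling favours the lateral fate, and Foxf1 is a forkhead factor of lateral and extraembryonic mesoderm. Foxc1 and Foxc2 are related forkhead factors of paraxial and intermediate mesoderm that are also made in endothelium. Pdgfra is the receptor for platelet-derived growth factor A and C, found in early mesoderm as well as in primitive endoderm and neural crest. Tcf15 is also made in embryonic stem cells.

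Signals are on a log2 scale, where 1 unit is a 2-fold change, and levels of different probe sets are not set against each other. A value after ± is the limma standard error of a difference (n = 3 arrays per group). A gene was called where its p, adjusted by the Benjamini-Hochberg method over every gene tested, was under 0.05. Arrays within groups correlated at 0.966 to 0.995. The lowest value was among the day 0 arrays, and the lowest in any other group was 0.981. Day 0 replicate 1 had a mean of 11.2 over Pou5f1, Nanog, Sox2 and Zfp42, against 12.1 and 12.2 on replicates 2 and 3. Without day 0 replicate 1, 3713 genes were called from day 0 to day 2, against 2144 with all arrays. For Actb, the 3' probe set read 0.71 to 1.40 above the 5' one on the 21 arrays, a measure of RNA integrity. Against their labels, day 0 cells carried the pluripotency gene Pou5f1 at 11.8 ± 0.45 (SD, n = 3), and control day 5 aggregates had it at 6.51 ± 0.29 (SD, n = 3). Of the somite genes among the 6, Meox1 was not called in any comparison. In aggregates, fewer cells of a type and less RNA per cell cannot be told apart.

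RefSeq promoter windows were held for 2 of the 6 genes, Pdgfra and Foxc1, and are shown because both genes were higher at day 5 from windows of different base composition. Each line gives the 250 bases before the annotated start on the plus strand of GRCm38.p6, with motif matches in capitals. The Pdgfra window is chr5:75152001-75152250 and the Foxc1 window is chr13:31806396-31806645.
Pdgfra: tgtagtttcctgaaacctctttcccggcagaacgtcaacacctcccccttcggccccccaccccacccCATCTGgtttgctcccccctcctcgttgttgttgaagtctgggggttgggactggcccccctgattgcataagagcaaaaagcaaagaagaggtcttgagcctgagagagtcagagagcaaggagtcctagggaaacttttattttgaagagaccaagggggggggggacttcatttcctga
Foxc1: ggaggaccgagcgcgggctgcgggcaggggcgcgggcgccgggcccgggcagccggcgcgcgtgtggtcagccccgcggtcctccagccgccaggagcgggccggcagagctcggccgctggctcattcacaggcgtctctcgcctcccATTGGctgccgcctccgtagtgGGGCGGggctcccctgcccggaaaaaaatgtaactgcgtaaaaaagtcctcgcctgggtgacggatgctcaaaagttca
The Pdgfra window had 54.4% G and C and 4 CpG dinucleotides, and the Foxc1 window had 70.8% and 29. The medians over 32851 windows of that length were 52.4% and 6. The capitals in Pdgfra are 1 E box (CANNTG) whose first base lies at position -182 from the start. In Foxc1 they are a CCAAT box read on the other strand, at -101, and a GC box (GGGCGG) at -79. E boxes stood in 66.2% of all windows, CCAAT in 33.8% and GGGCGG in 32.7%. Each motif was searched on both strands. The forkhead letters TGTTTAC, in 3.17% of windows, had no match in either gene. Nor had AGATAA, bound by GATA factors and in 9.99% of windows, TATAAA, in 12.4%, or the homeobox letters TAATTA, in 4.84%.

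Most of the movement of these genes fell between day 3 and day 5. In that step without ascorbic acid, Foxf1, Pdgfra, Foxc1 and Foxc2 rose, Tcf15 fell, and Meox1 was not called. The call covered 5 of 6 genes, where 18.3% of all genes tested were called, 9.08% higher and 9.24% lower. The 6 genes were chosen with earlier results of these data known, so counts among them are descriptions. From day 0 to day 5 the same 5 genes were called in the same directions, against 29.9% of all genes (15.9% higher, 14% lower). These comparisons share the day 5 control arrays. Day 0 cells also differed from the aggregates in medium and culture format, so differences from day 0 cannot be assigned to time alone.

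Foxf1 was lower on every array up to day 3 than on any array at day 5. On the probe set that represents the gene (1434939_at, the one of its probe sets with the highest mean), the stem cells read 7.09, 6.54 and 7.02. Control aggregates read 6.86, 6.96 and 7.04 at day 2, and 6.75, 6.81 and 6.33 at day 3. At day 5 the control arrays read 10.28, 10.51 and 11.19, all above every earlier array. The rise from day 3 was 4.03 ± 0.33, a 16.3-fold increase (limma adjusted p = 3.14e-08), and from day 0 it was 3.78. Group means before day 5 ran from 6.48 to 6.95 over both arms, and no step among them was called. The second probe set, 1423013_at, moved less: 7.48, 7.37 and 7.41 in day 3 controls and 8.40, 8.05 and 8.56 at day 5. It rose by 0.92 ± 0.17 (limma adjusted p = 0.000614), so direction and call were shared by both probe sets, but not the size. With the median over both, the rise was 2.47.

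Pdgfra, the growth factor receptor, had, on its representing probe set, the largest difference of the 6 genes between day 0 and day 5. Its representing probe set (1421917_at) read 5.27, 5.46 and 5.61 in stem cells. Day 2 controls overlapped these at 5.18, 5.64 and 5.24. The day 3 controls read 7.33, 7.22 and 5.68, so replicate 3 lay near the day 2 arrays and the other two above them. Day 5 controls read 10.21, 10.82 and 10.37, above every earlier array. Pdgfra rose by 3.72 ± 0.42 from day 3 to day 5, a 13.2-fold increase (limma adjusted p = 2.06e-06). From day 0 it rose by 5.02 ± 0.42, a 32.4-fold increase. No detection call is held for any gene, so these folds are ratios of signal on this probe set. From day 3 to day 5 the other probe sets rose by less: 1.21 ± 0.23 on 1421916_at and 1.18 ± 0.23 on 1438946_at, both called. With the median over the 3 probe sets the rise was 1.29. From day 0 to day 5 the same probe sets, 1421916_at and 1438946_at, rose by 1.35 ± 0.23 and 1.28 ± 0.23, both called. With the median over probe sets the day 0 to day 5 difference was 1.75, below the 2.34 of Foxf1, so the ranking rests on the representing probe set. On 1421916_at and 1438946_at the day 2 to day 3 difference was -0.11 and -0.25, neither called, against 1.39 on the representing one. The intermediate level at day 3 therefore rests on 1 of 3 probe sets.

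**Figure D1:**
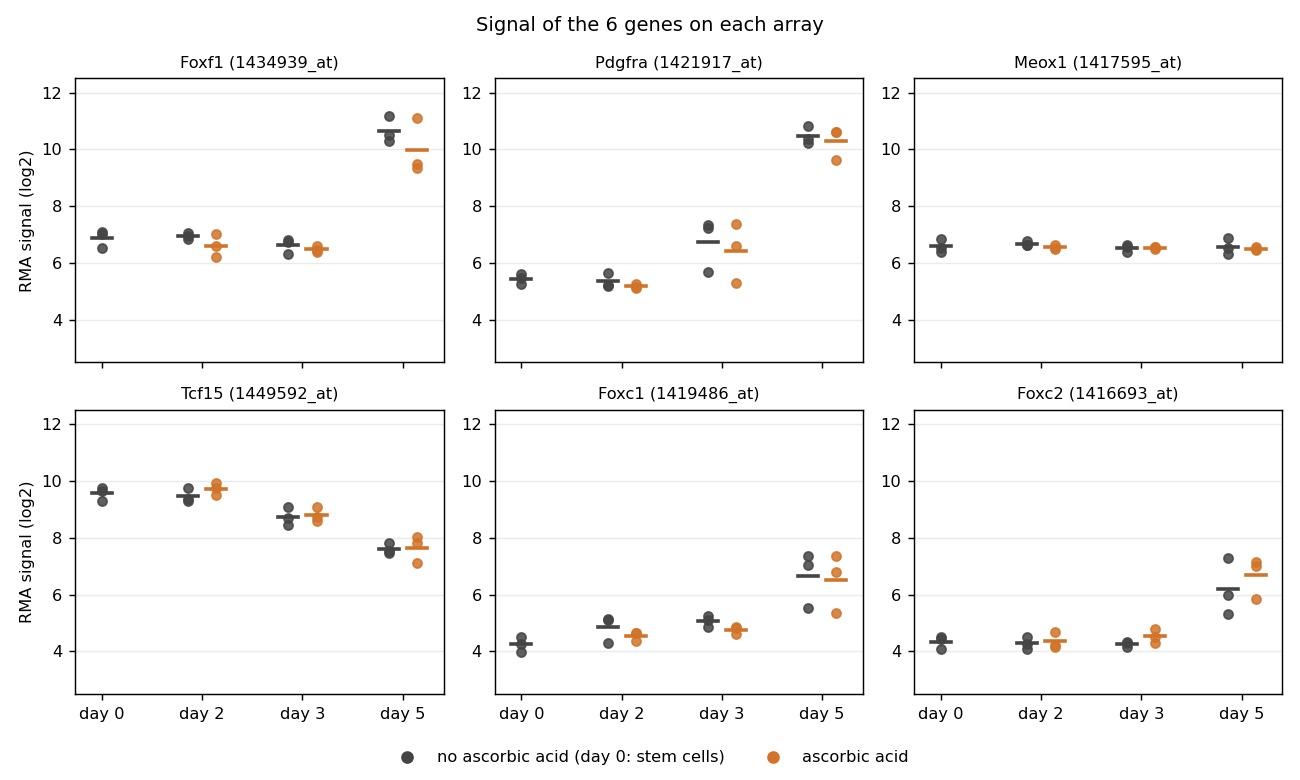
Log2 RMA signal of the representing probe set of each gene, by day of culture. Each point is 1 of 21 arrays and each bar is the mean of a group of 3. Foxf1 and Pdgfra stand above 9 on every day 5 array, Tcf15 steps down from day 2 onward, Meox1 stays between 6.31 and 6.88, and the day 5 points of Foxc1 and Foxc2 are spread widely.

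Foxc1 and Foxc2, the paired forkhead genes, rose at day 5 to levels that differed between replicates. Foxc1 (1419486_at) read 4.27, 3.99 and 4.51 in stem cells, against 5.09, 5.23 and 4.85 in day 3 controls. Its day 5 controls read 7.05, 7.35 and 5.51, which do not overlap day 3 although replicate 3 came close to it. The rise was 1.58 ± 0.41 (limma adjusted p = 0.00943). Foxc2 (1416693_at) gave 4.43, 4.50 and 4.08 in stem cells, against 4.15, 4.30 and 4.33 in day 3 controls. Day 5 controls read 5.99, 7.30 and 5.31, all above day 3, and the rise was 1.94 ± 0.35 (limma adjusted p = 0.000517). These are differences between signals as deposited. No fold or bound is given for either gene, because the files hold no detection call and earlier levels lie near the low end of the table, which starts at 2.51. On the second Foxc1 probe set (1419485_at), day 3 controls read 3.69, 3.99 and 3.80 and day 5 controls read 5.84, 6.13 and 3.82. Replicate 3 there lay within the day 3 range, and the difference of 1.44 ± 0.41 was called (limma adjusted p = 0.0188). The Foxc1 call of the representing probe set was lost without control day 5 replicate 1 (1.37, adjusted p = 0.0546) or replicate 2 (1.22, adjusted p = 0.0692).

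Tcf15, a basic helix-loop-helix factor, moved the other way. Day 0 arrays read 9.31, 9.66 and 9.76, and day 2 controls read 9.37, 9.30 and 9.77, with overlap. Day 3 controls read 8.46, 8.68 and 9.10, all below day 2, and day 5 controls read 7.81, 7.53 and 7.48, all below day 3. The fall from day 3 to day 5 was -1.14 ± 0.22, 2.20-fold lower (limma adjusted p = 0.000765). From day 0 to day 5 it was -1.97 ± 0.22, 3.92-fold lower. All 4 pluripotency genes listed (Pou5f1, Nanog, Sox2 and Zfp42) fell from day 3 to day 5 in controls, by 3.17 to 5.63.

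Meox1, a homeobox gene of somites, gave no step and no order among the groups. Its 21 values lay between 6.31 and 6.88, with group means between 6.50 and 6.67, and the lowest and highest array both stood in day 5 controls. The difference from day 3 to day 5 in controls was 0.04 ± 0.13, with a 95% interval from -0.24 to 0.32 (limma adjusted p = 0.902). From day 0 to day 5 it was -0.01, with an interval from -0.29 to 0.26. A change as large as those of the other 5 genes lies outside these intervals for this 1 probe set.

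With ascorbic acid, the step from day 3 to day 5 called the same 5 genes in the same directions, where 18.1% of all genes were called (9.21% higher, 8.92% lower). Foxf1 read 6.37, 6.59 and 6.47 at day 3 and 9.50, 9.34 and 11.10 at day 5, a rise of 3.50 ± 0.33. Pdgfra rose by 3.86 ± 0.42, from 6.60, 7.37 and 5.30 to 9.62, 10.62 and 10.60. Foxc1 rose by 1.74 and Foxc2 by 2.15, and Tcf15 fell by 1.14. Meox1 differed by -0.03 ± 0.13. No treated day 5 array of the 4 rising genes reached down to its day 3 range.

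**Figure D2:**
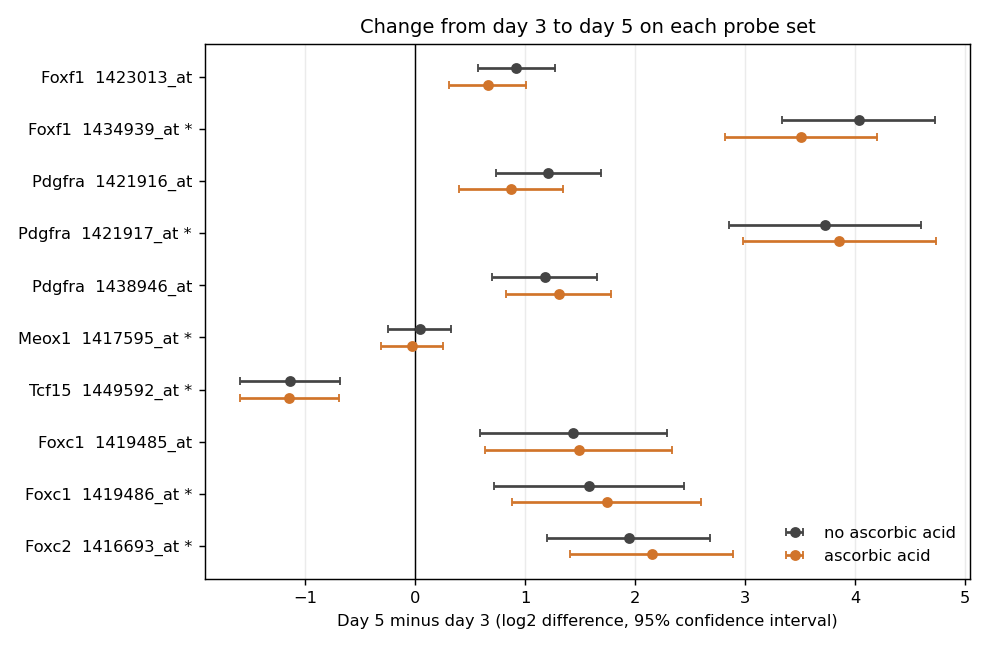
Difference between day 5 and day 3 on each of the 10 probe sets, in log2 units, without and with ascorbic acid. Points are limma estimates, bars are 95% confidence intervals, and an asterisk marks the probe set that represents its gene. The other probe sets of Foxf1 and Pdgfra show the same sign at a smaller size, and the Meox1 interval spans 0.

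Earlier steps called fewer of these genes. From day 0 to day 2, limma called 0 of 6 (0 at an unadjusted p under 0.05), where 11.8% of all genes were called (1.09% to 20.4% over the alternatives). The largest difference was Foxc1 at 0.59 ± 0.41. From day 2 to day 3 in controls it again called 0 of 6, where 5.81% of all genes were called (1.42% to 8.27%). In that step 2 of 6 had an unadjusted p under 0.05: Pdgfra at 1.39 ± 0.42 (adjusted p = 0.0546) and Tcf15 at -0.73 ± 0.22 (adjusted p = 0.0520). With ascorbic acid, 1 of 6 was called in this step, against 4.69% of all genes, 1.29% of them lower: Tcf15 fell by 0.93 (limma adjusted p = 0.0162). Its treated arrays read 9.76, 9.93 and 9.50 at day 2 and 8.73, 8.58 and 9.08 at day 3, without overlap. The call was lost without treated replicate 1 or 2 of day 2, or without replicate 1 or 2 of day 3, with adjusted p up to 0.117. Treated Pdgfra differed by 1.24 ± 0.42 (limma adjusted p = 0.104).

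Replicate 3 stood apart at day 3 and at day 5 for some of the 6 genes in both arms, and for others the arms differed. At day 3 it was lower than the mean of replicates 1 and 2 for Pdgfra on its representing probe set, by -1.60 without and -1.69 with ascorbic acid. The gap was smaller on the other Pdgfra probe sets. Replicates 1 to 3 read 6.39, 6.22 and 5.93 without and 6.25, 6.35 and 6.14 with ascorbic acid on 1421916_at. On 1438946_at they read 5.79, 5.69 and 5.45 without and 5.15, 5.82 and 5.63 with it. Replicate 3 was higher for Tcf15, by 0.53 and 0.43. The arms were less alike for Foxf1, at -0.45 and -0.01, and for Foxc1, at -0.31 and 0.105. On the same arrays the primitive streak genes, which mark cells about to become mesoderm, differed too: Mixl1 by -3.69 and -3.56, Gsc by -3.45 and -3.09 and Eomes by -1.58 and -1.46. The mean level of the 6 streak genes was 7.34 and 7.12 on the replicate 3 arrays, and 8.95 to 9.37 on the others of day 3. Without both replicate 3 arrays of day 3, the representing probe set of Pdgfra rose from day 2 to day 3. The rise was 1.92 in controls (limma adjusted p = 0.000347) and 1.80 with ascorbic acid (0.000555). Tcf15 then fell by 0.91 in controls (limma adjusted p = 0.0231). Foxc1 was then no longer called from day 3 to day 5 in controls (1.48, limma adjusted p = 0.0525), and with ascorbic acid it was (1.78, limma adjusted p = 0.0196). The part of the replicate 3 cultures in these values was not tested.

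At day 5 replicate 3 was high for Foxf1 on its representing probe set, by 0.80 in controls and 1.68 with ascorbic acid. The gap was smaller on 1423013_at, where replicates 1 to 3 read 8.40, 8.05 and 8.56 in controls. With ascorbic acid they read 7.93, 8.10 and 8.35. Replicate 3 was low for Foxc1 (-1.69 and -1.73) and for Foxc2 (-1.34 and -1.25). The arms were less alike for Pdgfra, at -0.145 and 0.48, and for Tcf15, at -0.19 and -0.80. Other lateral, trophoblast and blood genes were mixed on the same arrays. Hand1 was high (1.19 and 1.04) and Isl1 low (-0.67 and -0.57), while Hand2 differed by -0.10 and -0.71. Of the 4 trophoblast genes Plac1 (1.01 and 1.05) and Cdx2 (0.51 and 1.00) were higher in both arms. Among the 6 blood and endothelium genes, Cdh5, the endothelial cadherin (-1.93 and -2.08), Hbb-bh1, an embryonic globin (-2.78 and -2.18), and Kdr (-0.51 and -0.77) were lower in both arms. Tal1 differed by -0.75 and -0.06, Gata1 by 0.10 and 0.06, and Pecam1 by 0.11 and 0.01. The mean of the 6 blood and endothelium genes was 7.20 and 8.42 on the replicate 3 arrays, against 8.04 and 8.28 in the other controls and 9.31 and 9.20 in the other treated cultures. Without both replicate 3 arrays of day 5, the rise from day 3 in controls was 2.14 for Foxc1 (limma adjusted p = 2.31e-06), 2.39 for Foxc2 (3.49e-06) and 3.77 for Foxf1. In treated cultures it was 2.32, 2.57 and 2.94. Whether cell makeup or timing sets these values was not tested.

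**Figure D3:**
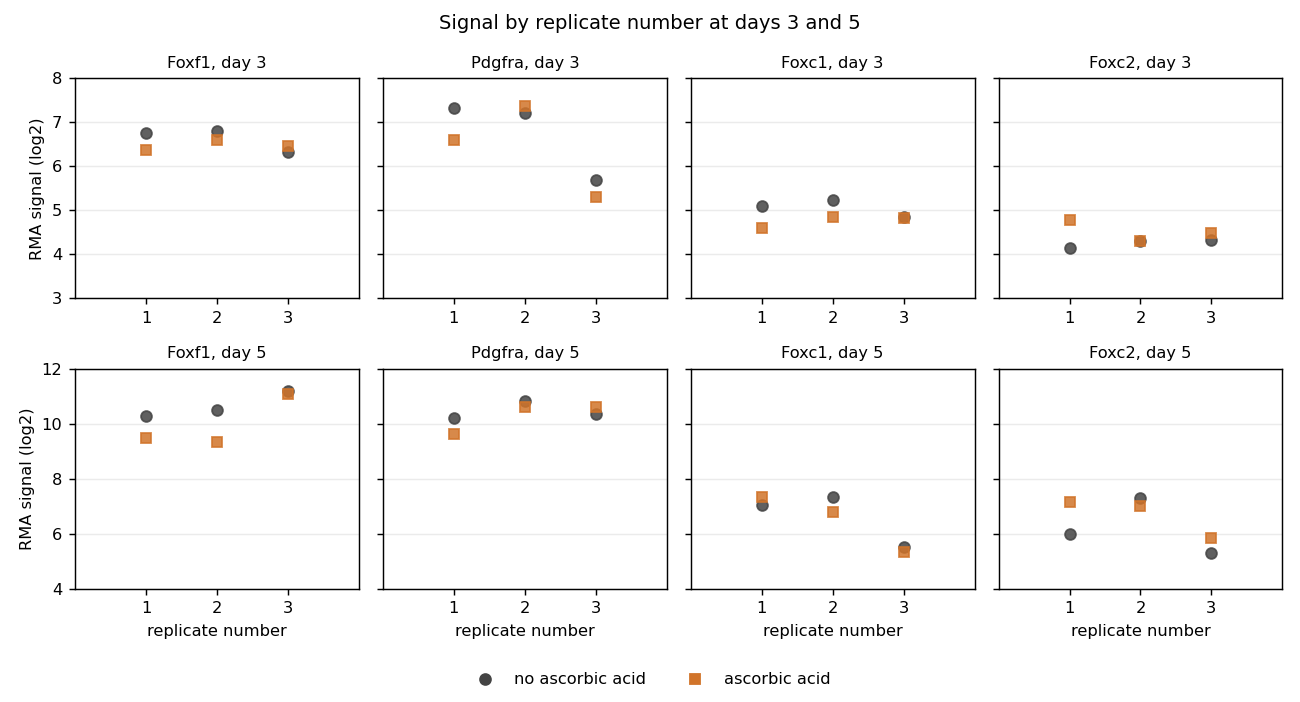
Log2 RMA signal of the representing probe sets of Foxf1, Pdgfra, Foxc1 and Foxc2 by replicate number at day 3 (top) and day 5 (bottom). Each point is 1 array, without (circles) and with (squares) ascorbic acid. The numbers are names and have no order. Replicate 3 lies low in both arms for Pdgfra at day 3 and for Foxc1 and Foxc2 at day 5, and high for Foxf1 at day 5.

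Ascorbic acid called none of the 6 genes on any day in the unpaired fit, which is the main one. Limma called 0 of 6 at day 2, day 3 and day 5, for the average over days and in the F test of a difference between days, and 0 of 6 had an unadjusted p under 0.05 in each. Few genes were called at all: 0.0055% at day 2, 0% at day 3 (269 at an unadjusted p under 0.05), 0.0605% at day 5, 0.0275% for the average and 0.0055% in the F test. Treated and control arrays overlapped on every day for all 10 probe sets except Foxc1 1419485_at at day 2. Of all probe sets, 12.8% had no overlap at day 2, 6.52% at day 3 and 6.63% at day 5. The average differences were -0.23 for Pdgfra (95% interval -0.73 to 0.28), -0.06 for Meox1 (-0.22 to 0.10) and 0.12 for Tcf15 (-0.15 to 0.38). They were -0.24 for Foxc1 (-0.74 to 0.25), 0.27 for Foxc2 (-0.16 to 0.70) and -0.39 for Foxf1 (-0.79 to 0.01). Single-day intervals were wider. They reached -1.37 for Foxf1 at day 5 and -1.03 at day 2, each beyond a 2-fold change. For Pdgfra they reached -1.04 at day 2, -1.19 at day 3 and -1.06 at day 5. Those of Foxc1 reached -1.16 at days 2 and 3, and those of Foxc2 1.005 at day 3 and 1.21 at day 5.

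Foxf1 was the one of the 6 genes whose call changed in the paired fit, which sets each treated array against the control array of the same day and replicate number. At day 5 the treated arrays read 9.50, 9.34 and 11.10 and the controls 10.28, 10.51 and 11.19, so the pairs differed by -0.78, -1.17 and -0.09. Over all days Foxf1 was lower with ascorbic acid in 8 of 9 pairs. The average difference was -0.39 ± 0.10, 1.31-fold lower, and was called in the paired fit (limma adjusted p = 0.0440, against 0.998 unpaired). Fitted over all probe sets in the same way, that probe set was not called (limma adjusted p = 0.0604). The gene fit called 1 of 6 genes, where it called 1.94% of all genes, 0.495% lower. In it 4 of 6 had an unadjusted p under 0.05: Foxf1, Pdgfra and Foxc1, which were lower, and Foxc2, which was higher. The Foxf1 call was lost in 6 of 9 fits that left out 1 pair, with adjusted p from 0.00515 to 0.165 over the 9. The other Foxf1 probe set differed by -0.10 ± 0.08 and was lower in 5 of 9 pairs. At day 5 alone the paired difference was -0.68 ± 0.17 (limma adjusted p = 0.0706); without the replicate 3 pair it was -0.98 (0.00549) and without the replicate 2 pair -0.43 (0.493). In the unpaired fit the day 5 difference ran from -1.24, without treated replicate 3 (limma adjusted p = 0.0310), to -0.36, without treated replicate 2. On the same day 5 arrays 2 of 6 blood and endothelium genes were higher with ascorbic acid in the unpaired fit, Tal1 by 1.63 and Gata1 by 0.97, and 4 of 6 in the paired one, with a median difference of 0.97 over the list. The list's mean level was 7.20 to 8.28 in controls and 8.42 to 9.31 with ascorbic acid. The 4 trophoblast genes had a median of -0.42 with 0 called at day 5, and Tfap2c was lower on average over days in the paired fit (-0.55, limma adjusted p = 0.00343). The part of these cell types in the Foxf1 difference was not tested. In single-day paired fits 0 of 6 genes were called at days 2, 3 and 5 (0, 0 and 2 at an unadjusted p under 0.05), where 2.64%, 0.198% and 0.956% of all genes were called.

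The gene lists around these members gave different counts in the step from day 3 to day 5. They were written with earlier results of these data known, so their counts are descriptions. Of 12 lateral plate genes, 10 rose from day 3 to day 5 in controls and 0 fell, where 9.08% of all genes were called higher and 9.24% lower. The median difference was 1.07 over the list and -0.03 over all genes. Hand2, a heart and limb factor, rose by 4.84 ± 0.18, and the ligand Bmp4 by 3.11 ± 0.55. Prrx2, a limb and mesenchyme homeobox gene, rose by 1.73 and Hand1 by 1.41. Tbx4 and Tbx5, limb and heart T-box genes, were the pair not called, at 0.27 ± 0.19 and 0.25 ± 0.16. With ascorbic acid 7 of the 12 rose, and the median was 1.12. Without the replicate 3 arrays of day 3, or without those of day 5, 9 of the 12 rose in controls.

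Paraxial genes were called at about the share of all genes in this step, 18.3%. Of 10 presomitic genes 1 rose and 1 fell in controls, with a median of -0.04. Rspo3, a secreted enhancer of Wnt signalling, rose by 1.85 ± 0.38, and Dll3, a Notch ligand, fell by 1.85. The others (Tbx6, Msgn1, Dll1, Hes7, Lfng, Mesp2, Ripply2 and Wnt3a) differed by -0.33 to 0.45 without a call. Of 13 somite genes 2 rose and 0 fell, with a median of -0.02: Twist1 by 2.55 ± 0.26 and Aldh1a2, which makes retinoic acid, by 1.03 ± 0.21. Both are also made outside somites. Of 4 measured intermediate mesoderm genes limma called 0 (0 at an unadjusted p under 0.05). Without the replicate 3 arrays of day 3, 1 of these 4 was called, Lhx1, which fell by 1.39 (limma adjusted p = 0.00128). With ascorbic acid the same step called 1 higher and 1 lower of the presomitic genes and 2 higher of the somite genes, and the intermediate mesoderm median was -0.29 with 0 called.

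Both main ligands of Pdgfra fell before the receptor rose. From day 0 to day 2 Pdgfa fell by 1.96 and Pdgfc by 1.68. From day 3 to day 5 in controls Pdgfc rose by 1.22 and the second receptor, Pdgfrb, by 1.17 ± 0.19, 2 of 5 genes. With ascorbic acid at day 5, Pdgfc was lower in the paired fit (-0.79, limma adjusted p = 0.00667) and not called in the unpaired one. For Tcf15, 6 of 7 dimer partners and Id inhibitors rose from day 3 to day 5 in controls, and 5 of 7 with ascorbic acid. Without the replicate 3 arrays of day 3 these counts were 5 and 3. In controls Id2 rose by 2.67, Id3 by 1.68, Id1 by 1.36 and the E protein Tcf12 by 1.01. E proteins pair with Tcf15, and Id proteins bind E proteins. Of 9 measured hedgehog pathway genes, 5 rose in controls (3 without the replicate 3 arrays of day 3) and 2 with ascorbic acid. In controls Ptch1, receptor and target, rose by 2.31, Gli2 by 1.22, Gli3 by 0.89 and Gli1 by 0.69. Beside the day 3 to day 5 counts of these lists, 9.08% of all genes were called higher in controls and 9.21% with ascorbic acid.

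Neighbours on the chromosome moved unevenly. In the RefSeq order Foxf1 lies between Fendrr, a long noncoding RNA gene, and Mthfsd, followed by Foxc2 and Foxl1. Foxc1 lies between Foxf2 and Gmds, beyond Foxq1. From day 3 to day 5 in controls Fendrr rose by 0.98 ± 0.15 (limma adjusted p = 0.000106) and Foxf2 by 0.59. They were 2 of 6 neighbours, where 9.08% of all genes were called higher. Foxl1, Foxq1, Mthfsd and Gmds differed by -0.20 to 0.09 and were not called.

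**Figure D4:**
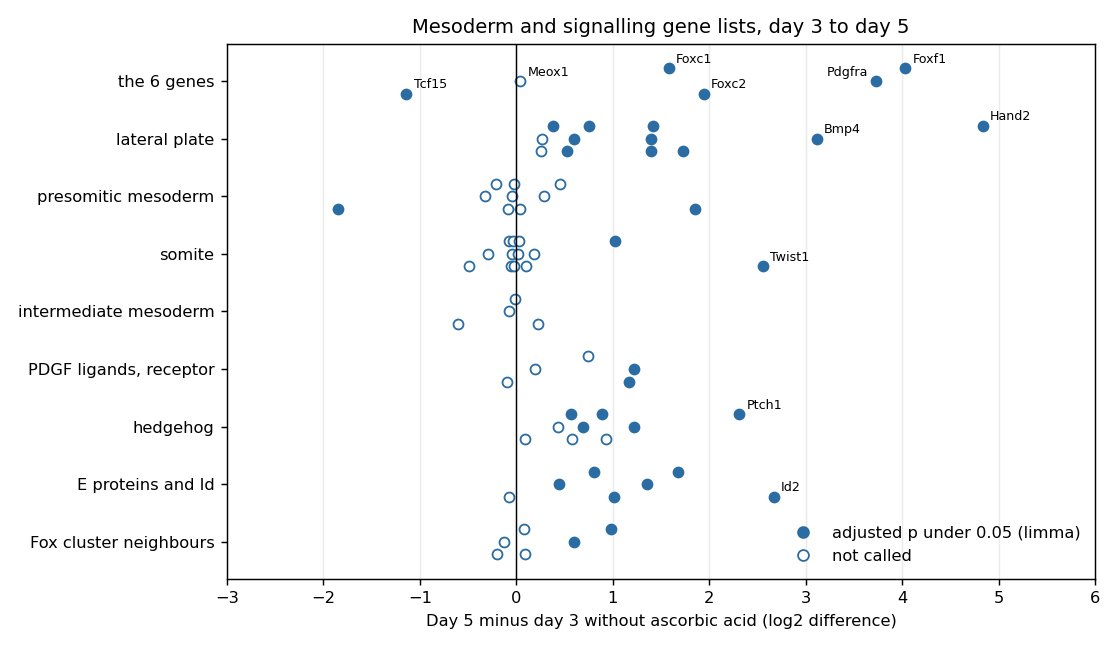
Difference between day 5 and day 3 without ascorbic acid, in log2 units, for each measured gene of the lists and for the 6 genes. Filled points were called by limma at an adjusted p under 0.05; Foxf2 stands in 2 lists. Lateral plate genes lie to the right of 0, 10 of 12 filled, while presomitic, somite and intermediate mesoderm genes cluster around 0.

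Markers of other tissues that make some of these genes gave mixed counts in the same step, where 9.08% of all genes were called higher and 9.24% lower. Of 10 primitive and visceral endoderm genes, 5 rose from day 3 to day 5 in controls (Gata6, where Pdgfra is also made, by 2.79). Their mean level was 6.49 to 6.58 at day 3 and 7.29 to 7.74 at day 5. Of 6 blood and endothelium genes 4 rose, with Kdr, a receptor of early mesoderm and endothelium, at 2.73. Of 4 trophoblast genes 2 rose, Plac1 by 4.04 and Cdx2 by 2.70. Of 6 neural crest genes, Snai2 rose by 6.66, Sox9 by 0.86, and Foxd3 fell by 1.17. Sox10 and Tfap2a of the same list were not called, at 0.01 ± 0.12 and 0.11 ± 0.12. Of 4 cardiac genes 1 rose, Mef2c by 1.56, and Tnnt2 and Nkx2-5 were not called. The part of these cell types in the members' signal was not tested.

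Likeness of course was measured as Pearson's r over all 21 arrays among 3261 genes whose group means span at least 1. Genes with clone or provisional names are counted in the 3261 but were left out of the ranking. It is a description with no test, since all genes share the arrays and the large shift to day 5. Nearest to Foxf1 were Cxcr4 (0.984), Stard8 (0.982) and Plac1 (0.980), and nearest to Pdgfra were Bmp2 (0.987), Fam210b (0.986) and Tspan3 (0.983). Tcf15 ran closest to Gadd45a (0.972), Dppa4 (0.970) and Rpl39l (0.969). For Foxc2 the nearest were Calcrl (0.978), a receptor of endothelium, Mef2c (0.970) and Ctla2b (0.967), and for Foxc1 Fras1 (0.945), Cpm (0.944) and Rbm24 (0.944). No ranked gene came above 0.592 for Meox1, where the nearest was Scn3b, followed by Bicdl2 (0.562) and Vgll3 (0.533). The group means of Meox1 span less than 1, so genes as flat as Meox1 were not compared.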

How the data were processed

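RNA from CGR8 cells and embryoid bodies was hybridised as biotinylated cRNA (made from 100 ng total RNA) to an Affymetrix mouse array. Per the submitters' processing notes, the deposited log2 values were made with RMA (version not given in the sources used here). RMA includes quantile normalisation, so a shift of all genes together would not show. The table held 45101 probe sets, and all 21 columns were used. Of these, 34958 had 1 gene symbol in the platform annotation, 932 several and 9211 none; 64 AFFX controls were left out. Symbols were checked by Entrez identifier against RefSeq (34754 matched, 0 changed). Where a gene had several probe sets, the one with the highest mean level stood for it, giving 18193 genes.

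limma 3.58.1 in R 4.3.3 (lmFit, eBayes with trend) was fitted to the 7 group means across all genes, with no pseudocount and no filter on dim genes, and was tested on simulated data. Group differences are day steps within an arm, and treated minus control at each day and on average. The probe set values were fitted in the same way over all probe sets with 1 symbol. The labels call the replicates biological, with no culture dates. Deviations from group means correlated at 0.178 to 0.679 in 9 of 9 pairs of treated and control arrays with the same day and number, above 0.1, so a paired fit with 9 blocks stands beside the unpaired one. The array number limits the precision.

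The members and lists were chosen with earlier results of these data known. Named genes are the 6 members, in each list up to 4 called genes with the largest difference from day 3 to day 5 in controls and up to 3 called genes per other comparison, the marker genes, and the 3 genes most like each member. Genes named as not called, and those named for replicate 3, were chosen after their values were seen. Alternatives were renewed quantile normalisation, the median over probe sets, a filter on dim genes, fitting only the groups compared, replicate blocks and leaving out arrays. Promoter windows and gene order are from RefSeq on GRCm38.p6; probe set positions were not used, because the array's build is not named. Pax2 was not analysed here.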

Additional observations from a re-analysis of the deposited data

How the results depend on the processing

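The calls from day 3 to day 5 and from day 0 to day 5 kept their number of called members within 1.5 times under every alternative run, and Foxf1, Pdgfra, Foxc2 and Tcf15 were called in each. The Foxc1 exceptions stand in the report. From day 2 to day 3 in controls the count of 0 became 1 after renewed quantile normalisation, with the filter on dim genes, with only the groups compared, with the replicate number across days as a block and without the replicate 3 arrays of day 5. It became 2 without the replicate 3 arrays of day 3, and ran from 0 to 2 over fits leaving out 1 array. With ascorbic acid that step's count of 1 became 2 without the replicate 3 arrays of day 3 and ran from 0 to 2 leaving out 1 array. The day 5 treatment count of 0 ran to 1. For the average treatment effect the replicate block by day and number gave 1 called member, also after renewed quantile normalisation, and 0 to 1 leaving out 1 pair or array. The block changed no other call of a member. Over these alternatives the share of all genes called ran in controls from 12.2% to 21.5% for day 3 to day 5 and from 18.8% to 33.8% for day 0 to day 5, and with ascorbic acid from 1.19% to 9.40% for day 2 to day 3 and from 12.0% to 22.2% for day 3 to day 5. Apart from the replicate 3 arrays and the arrays left out, the cause was not tested.

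Differences that changed sign were all uncalled. For day 0 to day 2, Pdgfra gave 0.26 with the median over probe sets. After renewed quantile normalisation Foxc2 gave 0.031 from day 2 to day 3 and Meox1 gave 0.0032 from day 0 to day 5. Leaving out 1 array or pair, control differences ran from -0.10 to 0.17 (Foxf1), -0.013 to 0.21 (Meox1) and -0.18 to 0.053 (Foxc2) for day 0 to day 2. They ran from -0.073 to 0.36 (Foxc1) and -0.13 to 0.085 (Foxc2) for day 2 to day 3, and for Meox1 from -0.12 to 0.17 for day 3 to day 5 and -0.17 to 0.12 for day 0 to day 5. Treated differences for day 2 to day 3 ran from -0.33 to 0.062 (Foxf1) and -0.055 to 0.01 (Meox1). Treatment differences ran from -0.20 to 0.25 for Foxc2 at day 2, and from -0.85 to 0.24 for Pdgfra and -0.093 to 0.23 for Tcf15 at day 3. At day 5 they ran from -0.40 to 0.14 (Pdgfra), -0.20 to 0.088 (Meox1), -0.17 to 0.31 (Tcf15) and -0.70 to 0.44 (Foxc1).

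With 3 arrays per group, small differences could not be shown, and signals near the low end of the scale, as for Foxc1 and Foxc2 before day 5, have no detection call. Probe sets of a gene differed in the size of change.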
